A study of Mus musculus with 27 samples.

Results

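The 10 neuropeptide genes Npy, Sst, Cck, Vip, Cort, Penk, Pdyn, Tac1, Tac2 and Crh were followed in the brains of mice infused with autoantibodies against the neuronal surface protein IgLON5. They were taken by symbol, as the rows of the deposited count table whose Ensembl gene ID carries one of these names in GENCODE M21, which gives 10 of 55487 gene IDs. All 10 passed the filter of at least 10 counts in at least 4 libraries, as did 20271 genes in all. RNA-seq covered the contralateral hippocampus and cortex of male C57Bl/6J wild-type mice, 8 weeks old at the start, after 14 days of unilateral infusion at 0.25 μl/h into the right lateral ventricle. The mice received α-IgLON5#1 (a pool of affinity-purified IgLON5 antibodies from a patient, n = 4 hippocampi and 4 cortices), the control antibody pCtrl (n = 4 hippocampi and 5 cortices) or PBS (n = 5 hippocampi and 5 cortices). The study's text takes pCtrl from the serum of a healthy person and the sample labels call it a monoclonal human IgG that does not react with brain, so its exact nature is uncertain here. The 27 libraries came from 14 mice, 13 of which gave both tissues. Each mouse was infused separately, so a library is 1 tissue of 1 animal.

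Neuropeptides are made as larger precursors, which are cut and often amidated in dense core vesicles and released during strong or repeated firing to act on G protein-coupled receptors. In cortex and hippocampus most of these genes are known from GABAergic interneurons: Sst, Vip and Npy mark interneuron classes, Cort is made by a subset of interneurons, and Cck is made by basket cells and also by many pyramidal cells. Penk, Pdyn, Tac1, Tac2 and Crh are expressed by smaller groups of interneurons and principal cells, Pdyn and Penk among them in dentate granule cells.

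Sequences upstream of these genes are shown because somatostatin transcription is the textbook example of control through a cAMP response element. RefSeq promoter windows of GRCm38.p6, 300 bases long and reaching 50 bases past a start site, were at hand for 8 of the 10 genes, that is, without Penk and Crh. TGACG, the core of the element, was searched on both strands together with its full palindrome TGACGTCA, which contains it, the AP-1 motif TGANTCA and TATAAA. The core stood in the windows of 5 of the 8 genes and in 20.8% of 32851 promoter windows. Those 5 windows follow, 5′ to 3′ on the strand of the gene, with TGACG or its reverse complement CGTCA in capitals and, except for Tac1, shortened to the bases nearest the start site.

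Sst, chr16:23890795-23890944, minus strand: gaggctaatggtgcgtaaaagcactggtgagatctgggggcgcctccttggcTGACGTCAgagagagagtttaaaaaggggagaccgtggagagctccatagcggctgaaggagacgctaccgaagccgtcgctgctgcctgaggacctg
Cck, chr9:121495645-121495794, minus strand: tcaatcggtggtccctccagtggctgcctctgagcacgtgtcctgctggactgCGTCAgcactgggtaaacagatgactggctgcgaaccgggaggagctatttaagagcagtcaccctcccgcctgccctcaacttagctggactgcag
Vip, chr10:5639118-5639267, plus strand: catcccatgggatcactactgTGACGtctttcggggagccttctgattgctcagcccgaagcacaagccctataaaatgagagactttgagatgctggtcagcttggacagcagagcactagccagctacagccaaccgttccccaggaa
Tac1, chr6:7554811-7555110, plus strand: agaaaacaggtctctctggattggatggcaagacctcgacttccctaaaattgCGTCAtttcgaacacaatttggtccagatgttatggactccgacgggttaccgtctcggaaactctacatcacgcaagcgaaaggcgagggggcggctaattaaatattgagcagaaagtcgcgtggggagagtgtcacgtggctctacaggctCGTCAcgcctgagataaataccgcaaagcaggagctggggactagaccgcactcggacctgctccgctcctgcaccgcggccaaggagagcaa
Cort, chr4:149126714-149126863, minus strand: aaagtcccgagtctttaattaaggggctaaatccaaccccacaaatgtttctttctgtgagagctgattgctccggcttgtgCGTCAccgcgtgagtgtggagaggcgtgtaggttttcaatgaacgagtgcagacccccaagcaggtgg

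Of the 8 genes searched, Sst alone carried the full palindrome, which 1.79% of all windows held. Vip alone of the 8 had TATAAA (13.6% of windows), and TGANTCA (7.81%) was in none of the 8. Tac1 had the core on the reverse strand at -197 and at -43 from its start site. The core lay at -48 in Sst, at -79 in Vip, at -47 in Cck and at -18 in Cort, on the reverse strand in Cck and Cort. A match is a description of letters in a window and not a measured binding site.

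The libraries held 19385642 to 58550621 counts (median 34061205). The labels give the cell type as neurons, but markers of astrocytes summed to 3891 to 6109 CPM (the usual normalised read count, scaled to the library total with TMM factors) and those of oligodendrocytes to 1508 to 4106 CPM, and the samples are read here as whole tissue. In bulk tissue fewer cells of a type and less RNA per cell cannot be told apart. Microglial markers (8 genes) summed to 592.8 to 1072 CPM in α-IgLON5#1 hippocampi and to at most 399.1 CPM in control hippocampi. Libraries also differed on a composition score, the mean log2 CPM of 100 cortex-high genes minus that of 100 hippocampus-high genes. These genes, members left out, had the largest fold changes between the PBS cortices and PBS hippocampi of these same data. The score is thus not independent of the PBS libraries. PBS hippocampi lay between -1.69 and -0.88, but the pCtrl hippocampi of mice 10 and 37 lay at 0.16 and 0.85, towards the cortices (1.87 to 2.88). The PBS hippocampus of mouse 74 held 3890 CPM of hypothalamic and pituitary markers, against at most 221 CPM in any other library, and leaving it out changed no call for the 10 genes.

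Sst and Cck had the highest levels in both tissues, and the lowest were those of Crh in PBS hippocampi and Tac1 in PBS cortices. Levels are compared between genes as CPM per kb of exon, since these genes differ from 566 to 3402 bases in exon length. In PBS hippocampi the order was Sst (242 CPM per kb, mean of n = 5), Cck (141), Npy (48.7), Cort (10.3), Penk (10.0), Vip (5.71), Pdyn (4.81), Tac1 (2.98), Tac2 (1.97) and Crh (1.34). The ranges of neighbours in that order overlapped for Cort and Penk, for Vip and Pdyn, and for Tac2 and Crh, and were apart for the other neighbours. In PBS cortices the order was Sst (232 CPM per kb), Cck (168), Npy (69.3), Penk (17.3), Vip (14.1), Cort (9.95), Pdyn (6.40), Crh (4.16), Tac2 (4.11) and Tac1 (2.79). There the ranges overlapped for Sst and Cck, Penk and Vip, Vip and Cort, Pdyn and Crh, and Crh and Tac2. Counts behind a single value ran from 27 (Crh, a hippocampus) to 11430 (Cck), and the lowest hippocampal counts of Cort and Tac2 were 44 and 48.

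Group means of the 10 genes across the treatments follow, in the order PBS, pCtrl and α-IgLON5#1, as CPM ± SD (n = 5, 4 and 4 hippocampi and n = 5, 5 and 4 cortices). Sst averaged 175 ± 25, 169 ± 15 and 149 ± 5.56 CPM in hippocampi and 167 ± 21, 151 ± 14 and 165 ± 3.57 CPM in cortices. Npy averaged 27.6 ± 3.23, 24.6 ± 1.6 and 26.5 ± 3.66 CPM in hippocampi and 39.2 ± 9.15, 43.8 ± 5.38 and 40.2 ± 6.59 CPM in cortices. Cck averaged 184 ± 7.63, 188 ± 15.7 and 198 ± 13.7 CPM in hippocampi and 220 ± 28.9, 267 ± 31 and 223 ± 24.8 CPM in cortices. For Npy and Cck the highest cortical mean belonged to pCtrl. Vip averaged 19.4 ± 1.63, 27.6 ± 3.66 and 21.4 ± 3.84 CPM in hippocampi and 48.1 ± 8.03, 64.8 ± 9.88 and 49.7 ± 8.25 CPM in cortices. Cort averaged 6.96 ± 0.391, 5.39 ± 0.593 and 5.23 ± 1.98 CPM in hippocampi and 6.74 ± 1.06, 7.99 ± 0.589 and 7.40 ± 0.858 CPM in cortices. The pCtrl mean of Vip was the highest of the 3 groups in both tissues, as it was for Tac2 and Crh.

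Penk averaged 16.4 ± 3.71, 15.9 ± 3.82 and 14.7 ± 0.83 CPM in hippocampi and 28.3 ± 4.04, 24.7 ± 3.54 and 27.5 ± 2.57 CPM in cortices. Pdyn averaged 13.9 ± 3.62, 11.5 ± 3.38 and 15.6 ± 3.69 CPM in hippocampi and 18.5 ± 4.18, 26.2 ± 5.74 and 17.0 ± 2.82 CPM in cortices. The opioid precursors thus differed in which group was highest, and Pdyn varied by 16.6% to 29.4% of its mean within groups. Tac2 averaged 2.72 ± 0.605, 3.33 ± 0.345 and 2.74 ± 0.300 CPM in hippocampi and 5.67 ± 0.749, 7.54 ± 1.3 and 5.69 ± 1.18 CPM in cortices. Crh averaged 1.76 ± 0.255, 2.31 ± 0.531 and 1.75 ± 0.421 CPM in hippocampi and 5.49 ± 1.67, 8.48 ± 1.66 and 6.71 ± 2.17 CPM in cortices. Tac1 averaged 10.1 ± 1.2, 11.5 ± 0.851 and 7.65 ± 2.15 CPM in hippocampi and 9.50 ± 0.904, 9.65 ± 1.4 and 10.3 ± 0.633 CPM in cortices. In edgeR with all libraries, no difference between treatments in these genes passed the test apart from Tac1.

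**Figure D1:**
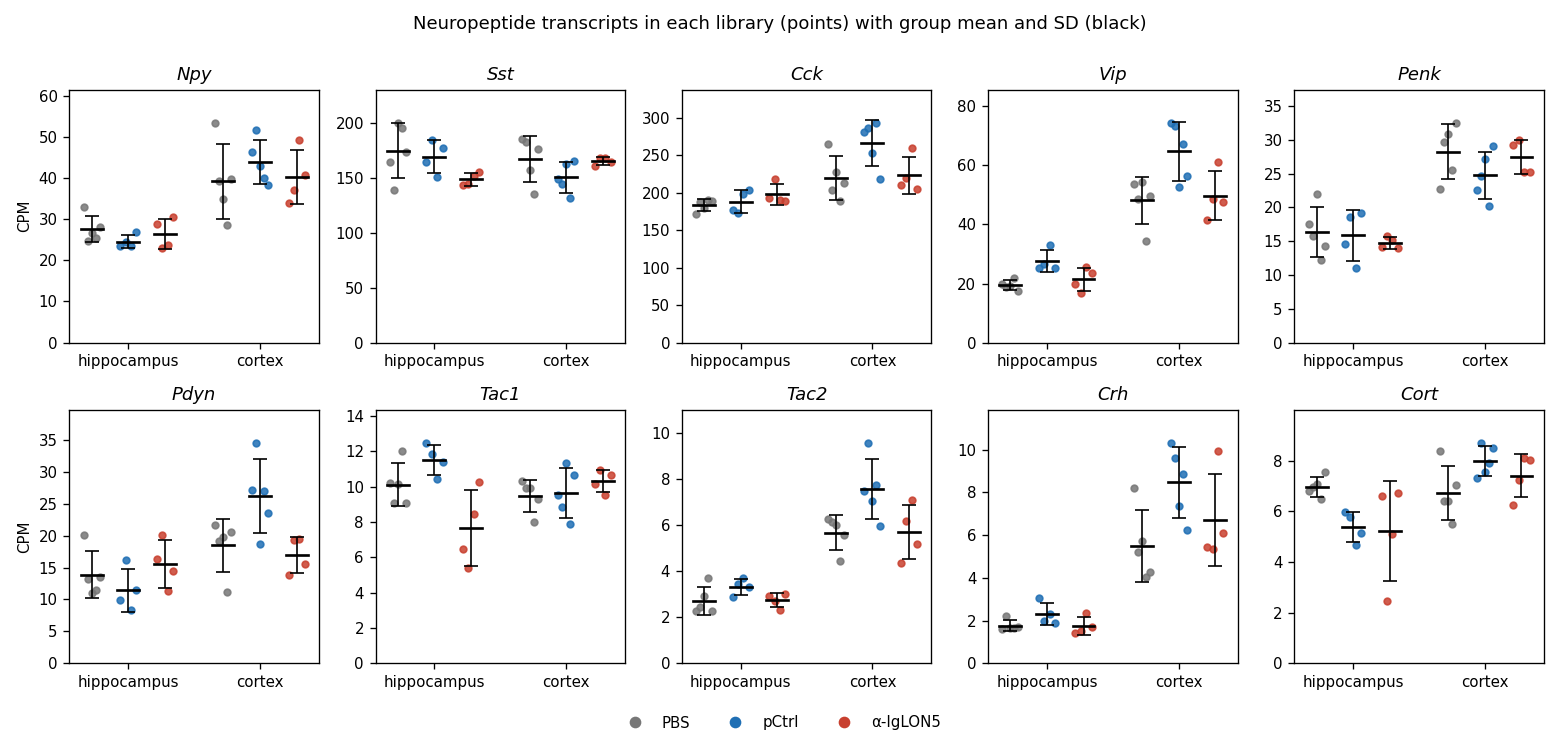
Level of each of the 10 genes in every library (vertical axis, CPM, linear and from 0, with its own scale for each gene), by tissue and treatment, 1 point per library, with the group mean and SD in black. Tac1 in the α-IgLON5#1 hippocampi, at 5.41 to 10.3 CPM, lies below the pCtrl hippocampi at 10.4 to 12.4 CPM, and Vip, Tac2 and Crh lie higher in cortex than in hippocampus.

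RNA-seq was 1 readout of the infusion and compares α-IgLON5#1 with pCtrl and PBS in each tissue. Of the 10 genes, 1 changed: Tac1, which encodes the precursor of substance P and neurokinin A, fell in the hippocampus against pCtrl. At an adjusted p under 0.05 (edgeR, Benjamini-Hochberg adjustment over 20271 genes), 7.01% of all genes were called in this comparison and 2.78% were called lower. With 1 of 10 members called, the share among the neuropeptide genes was near that background. At an unadjusted p under 0.05 there were 2 members, among 4431 of all 20271 genes, the other being Vip (-0.36, SE 0.15, adjusted p = 0.136). The median log2 fold change of all 10 members was -0.15, against 0.00 over all genes.

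Tac1 (ENSMUSG00000061762, chr6:7554879-7565834, plus strand, GRCm38) measured 6.50, 5.41, 8.43 and 10.3 CPM in the α-IgLON5#1 hippocampi of mice 8, 9, 16 and 17. In pCtrl hippocampi it measured 12.4, 11.8, 10.4 and 11.4 CPM (mice 10, 15, 37 and 75). In PBS hippocampi it measured 10.2, 9.09, 10.2, 12 and 9.09 CPM (mice 14, 32, 33, 38 and 74). All α-IgLON5#1 values lay below all pCtrl values, mouse 17 only narrowly (11.7% of all genes were as fully separated, in either direction), and mouse 17 also lay within the range of the PBS group. The means were 7.65 ± 2.15 CPM (SD, n = 4) for α-IgLON5#1 and 11.5 ± 0.851 CPM (n = 4) for pCtrl, a log2 fold change of -0.57 (SE 0.14, 95% interval -0.86 to -0.28, adjusted p = 0.0135). Against PBS (10.1 ± 1.20 CPM, n = 5) the log2 fold change was -0.38 (SE 0.14, 95% interval -0.66 to -0.11), which did not pass the test (adjusted p = 0.125). Cortical Tac1 was 10.3 ± 0.633 CPM in α-IgLON5#1 (n = 4) and 9.65 ± 1.4 CPM in pCtrl (n = 5), and its log2 fold change was 0.09 (SE 0.13, adjusted p = 0.798), beside 0.12 against PBS (SE 0.13, adjusted p = 0.887). The difference between the tissues in this effect, tested as an interaction, was 0.67 on the log2 scale (SE 0.19) with an unadjusted p of 0.00194 from edgeR, and did not pass after adjustment (adjusted p = 0.245).

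The Tac1 call rested on single libraries. Without the α-IgLON5#1 hippocampus of mouse 9 it became -0.45 (adjusted p = 0.0696), without that of mouse 8 it became -0.50 (adjusted p = 0.0664), and without the pCtrl hippocampus of mouse 10 it became -0.54 (adjusted p = 0.0515). Without the α-IgLON5#1 hippocampus of mouse 17 it became -0.75 (adjusted p = 0.000892), and the comparison with PBS then passed as well (-0.56, adjusted p = 0.00975). The call was also lost with the composition score as a covariate (-0.49, adjusted p = 0.243), with only the libraries of both groups in the fit (-0.58, adjusted p = 0.135) and among mice 8 to 17 (-0.65, adjusted p = 0.183). The direction was the same under every alternative tried. Beside it, microglial markers (7 of 8 called higher) moved with the treatment, while neuronal markers summed to 4764 to 5295 CPM in α-IgLON5#1 and 5225 to 5943 CPM in pCtrl hippocampi with 1 of 5 called lower. GABAergic interneuron markers summed to 960 to 1126 CPM against 1077 to 1139 CPM, with 0 of 14 called by edgeR. Markers of cortical layers had 3 of 9 called lower (median -0.44, sums of 330 to 441 CPM against 415 to 534 CPM) and those of striatal medium spiny neurons 1 of 10, while dentate granule cell markers had a median of 0.68 with 0 of 6 called by edgeR. Markers of hypothalamus and pituitary had a median of -1.96 with 1 of 7 called lower, those of thalamus -0.47 with 1 of 6 lower and 1 higher, and those of choroid plexus -1.02 with 0 of 6 called by edgeR. Each gene of these lists was detected in every group. The part of these lists in the Tac1 result was not tested.

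**Figure D2:**
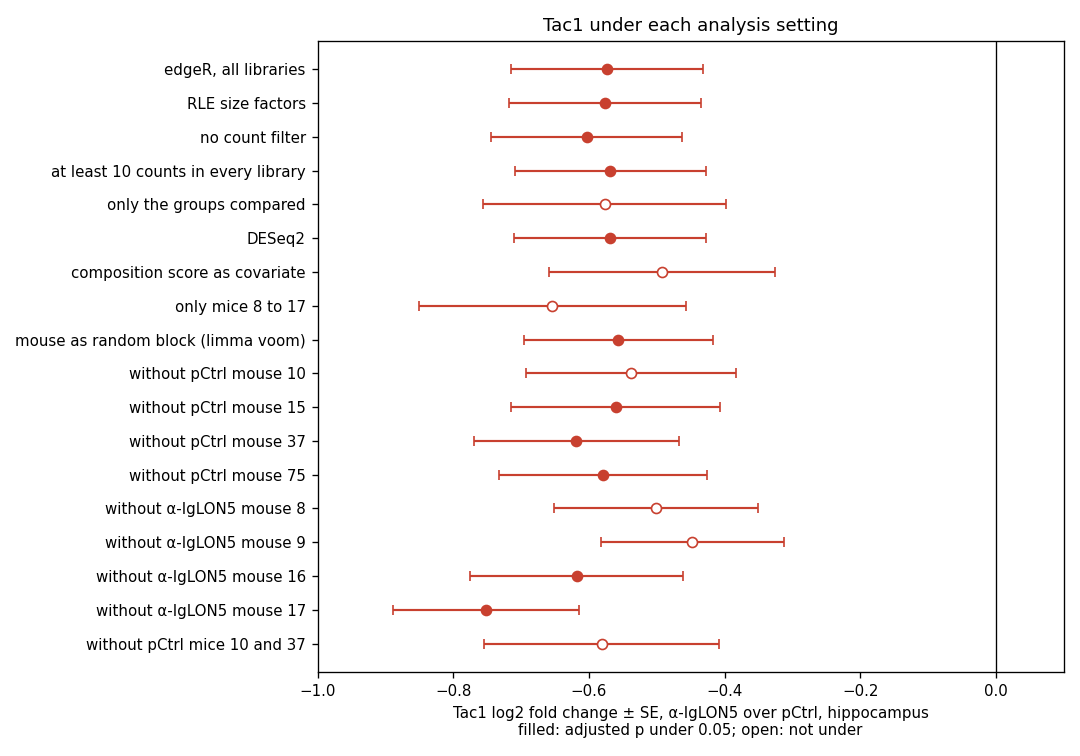
Log2 fold change of Tac1, α-IgLON5#1 against pCtrl in the hippocampus (horizontal axis, points with standard errors), in the main test and under each alternative, 1 per line; filled points have an adjusted p under 0.05 and open points do not. All points lie below 0, between -0.75 and -0.45.

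The receptors of these peptides were followed as a list of 19 tested genes, which includes the binding protein of corticotropin-releasing hormone. In the hippocampus against pCtrl 2 of 19 fell and none rose, with a list median of -0.12 on the log2 scale. Sstr2, a somatostatin receptor, fell to 10.5 ± 1.74 CPM in α-IgLON5#1, against 16.6 ± 3.87 CPM in the control antibody group (n = 4 each; log2 fold change -0.65, SE 0.19, adjusted p = 0.0343). Crhbp, which binds corticotropin-releasing hormone outside the cell, fell from 21.4 ± 0.382 to 17.0 ± 2.21 CPM (n = 4 each; -0.33, SE 0.09, adjusted p = 0.0320). Against PBS, Crhbp was the 1 gene of the list that fell (-0.36, SE 0.09, adjusted p = 0.0137). Sstr2 and Crhbp were not examined under the alternatives in which Tac1 lost its call. The receptors of substance P and neurokinin B did not pass against pCtrl, with -0.17 for Tacr1 (adjusted p = 0.745) and -0.46 for Tacr3 (adjusted p = 0.438). Of 12 genes for peptide processing and secretory vesicles, 11 other neuropeptide genes and 16 neuronal activity-regulated genes, none was called in this comparison by edgeR, with list medians of -0.09, -0.23 and -0.31.

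In edgeR with all libraries, the other 9 genes did not pass in any comparison of treatments. Against PBS in the hippocampus, 4.29% of all genes were called and 0 of 10 members by edgeR or by DESeq2 (3 at an unadjusted p under 0.05, as were 3103 of 20271 genes). The members other than Tac1 with an unadjusted p under 0.05 were Sst, the inhibitory peptide somatostatin, and Cort, which encodes the related cortistatin. Sst measured 143, 145, 151 and 155 CPM in α-IgLON5#1 hippocampi (mice 8, 9, 16 and 17) and 165, 139, 200, 196 and 173 CPM in PBS hippocampi (mice 14, 32, 33, 38 and 74), with a log2 fold change of -0.23 (SE 0.09, adjusted p = 0.205). The groups overlapped through PBS mouse 32, the lowest hippocampal value. Cort was 5.23 ± 1.98 CPM in α-IgLON5#1 (n = 4) and 6.96 ± 0.391 CPM in PBS (n = 5), and its log2 fold change of -0.40 did not pass (SE 0.17, adjusted p = 0.237). Its value of 2.48 CPM in mouse 9 was the lowest of the 27 libraries and rested on 44 counts. Among the interneuron markers Gad2, which makes GABA and is named here after its value was seen, was the 1 of 14 called in this comparison (-0.22, SE 0.06, adjusted p = 0.0350).

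Between the control groups, Vip in the hippocampus came nearest to a call, and 0 of 10 members were called by edgeR (2 at an unadjusted p under 0.05, as were 2828 of 20271 genes, and 1 called by DESeq2). Vip, the peptide of interneurons that mainly inhibit other interneurons, measured 25.3, 26.7, 33.0 and 25.4 CPM in pCtrl hippocampi (mice 10, 15, 37 and 75) and 19.8, 18.9, 19.1, 21.9 and 17.5 CPM in PBS hippocampi (mice 14, 32, 33, 38 and 74). All pCtrl values lay above all PBS values, a separation that 3.72% of all genes showed in either direction, and the highest belonged to mouse 37, the library farthest towards cortex on the composition score. The log2 fold change was 0.51 (SE 0.14) with an adjusted p of 0.0808 from edgeR, and 0.192% of all genes were called in this comparison. DESeq2 called it (adjusted p = 0.0221), as did edgeR without PBS mouse 38 (adjusted p = 0.0467) or pCtrl mouse 15 (adjusted p = 0.0487). These settings called 542, 339 and 763 of all genes, against 39 in the main test. With the composition score as a covariate the value was 0.13 (adjusted p = 0.939). Vip in α-IgLON5#1 hippocampi, at 19.8, 16.8, 25.5 and 23.4 CPM, overlapped both control groups. Activity-regulated genes summed to 1169 to 1579 CPM in pCtrl, 667 to 1135 CPM in PBS and 853 to 1239 CPM in α-IgLON5#1 hippocampi. Their part in the Vip values was not tested. Cort in pCtrl hippocampi ran from 4.69 to 5.97 CPM and lay below all PBS hippocampi (6.47 to 7.54 CPM), with a log2 fold change of -0.37 that did not pass (SE 0.17, adjusted p = 0.309).

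In the cortex, 3.46% of all genes were called against pCtrl and 3.05% against PBS, with 0 of 10 members in either comparison by edgeR or by DESeq2. At an unadjusted p under 0.05 there were 4 members against pCtrl, all with lower values in α-IgLON5#1, and 0 against PBS, as were 3116 and 1877 of all 20271 genes. Pdyn, the dynorphin precursor, measured 13.8, 19.3, 19.4 and 15.5 CPM in α-IgLON5#1 cortices (mice 8, 9, 16 and 17) and 27.2, 34.4, 18.7, 27 and 23.6 CPM in pCtrl cortices (mice 10, 11, 15, 37 and 75), and the groups overlapped through mouse 15. Its log2 fold change was -0.62 (SE 0.21, adjusted p = 0.121), beside -0.12 against PBS (SE 0.21, adjusted p = 0.940). Vip (-0.38, SE 0.13, adjusted p = 0.140), Tac2, the neurokinin B precursor (-0.40, SE 0.15, adjusted p = 0.182), and Cck, the cholecystokinin precursor (-0.26, SE 0.09, adjusted p = 0.137), were the other members. Cck was called without pCtrl mouse 75 (-0.32, adjusted p = 0.0397) or without α-IgLON5#1 mouse 16 (-0.32, adjusted p = 0.0401), and Vip without α-IgLON5#1 mouse 16 (-0.48, adjusted p = 0.0428).

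Between the control groups in the cortex 5 members, Crh, Pdyn, Vip, Tac2 and Cck, had an unadjusted p under 0.05, and none passed after adjustment. This comparison shares its pCtrl libraries with the one above. Crh, the precursor of corticotropin-releasing hormone, measured 10.3, 9.64, 7.35, 8.88 and 6.25 CPM in pCtrl cortices (mice 10, 11, 15, 37 and 75) and 8.20, 5.20, 5.75, 4.04 and 4.26 CPM in PBS cortices (mice 14, 32, 33, 38 and 74). PBS mouse 14 lay inside the pCtrl range and the other PBS cortices below it. The log2 fold change was 0.63 (SE 0.20, adjusted p = 0.407), and those of Pdyn (0.50), Vip (0.43), Tac2 (0.41) and Cck (0.28) had adjusted p-values of 0.399 to 0.512. No gene was called in this comparison (0.0% of all genes), by edgeR or by DESeq2, although 1650 genes had an unadjusted p under 0.05 in edgeR. Activity-regulated genes summed to 2862 to 4508 CPM in pCtrl, 1132 to 3513 CPM in PBS and 1870 to 3038 CPM in α-IgLON5#1 cortices, and the composition score was 2.30 to 2.88, 1.87 to 2.45 and 1.90 to 2.51. All these ranges overlap. With the composition score as a covariate, no gene was called between the control groups in the cortex by edgeR. As deviations from group means over the 14 cortices, r with the score was 0.94 for Crh, 0.89 for Cck, 0.83 for Vip, 0.81 for Tac2 and 0.64 for Pdyn. The part of the activity-regulated genes in the member values was not tested.

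The effect of α-IgLON5#1 was compared between tissues as an interaction, in which 0.0% of all genes were called against pCtrl and 0.00493% against PBS, with 0 of 10 members in each by edgeR and by DESeq2. At an unadjusted p under 0.05 there were 4 members against pCtrl and 2 against PBS, among 2158 and 672 of all 20271 genes. Pdyn had the widest difference against pCtrl: -0.62 in the cortex and 0.43 in the hippocampus (SE 0.23, adjusted p = 0.277), an interaction of -1.05 (SE 0.31, adjusted p = 0.245). In the hippocampus Pdyn measured 16.4, 20.1, 11.3 and 14.4 CPM in α-IgLON5#1 (mice 8, 9, 16 and 17) and 9.87, 16.1, 8.33 and 11.5 CPM in pCtrl (mice 10, 15, 37 and 75). The pCtrl mice with the lowest values, 37 and 10, were those whose hippocampi lay towards cortex on the composition score. Dentate granule cell markers, among the cells known to make dynorphin, summed to 128 to 410 CPM in pCtrl hippocampi, 325 to 478 CPM in α-IgLON5#1 and 306 to 574 CPM in PBS hippocampi, and their part in the Pdyn values was not tested.

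**Figure D3:**
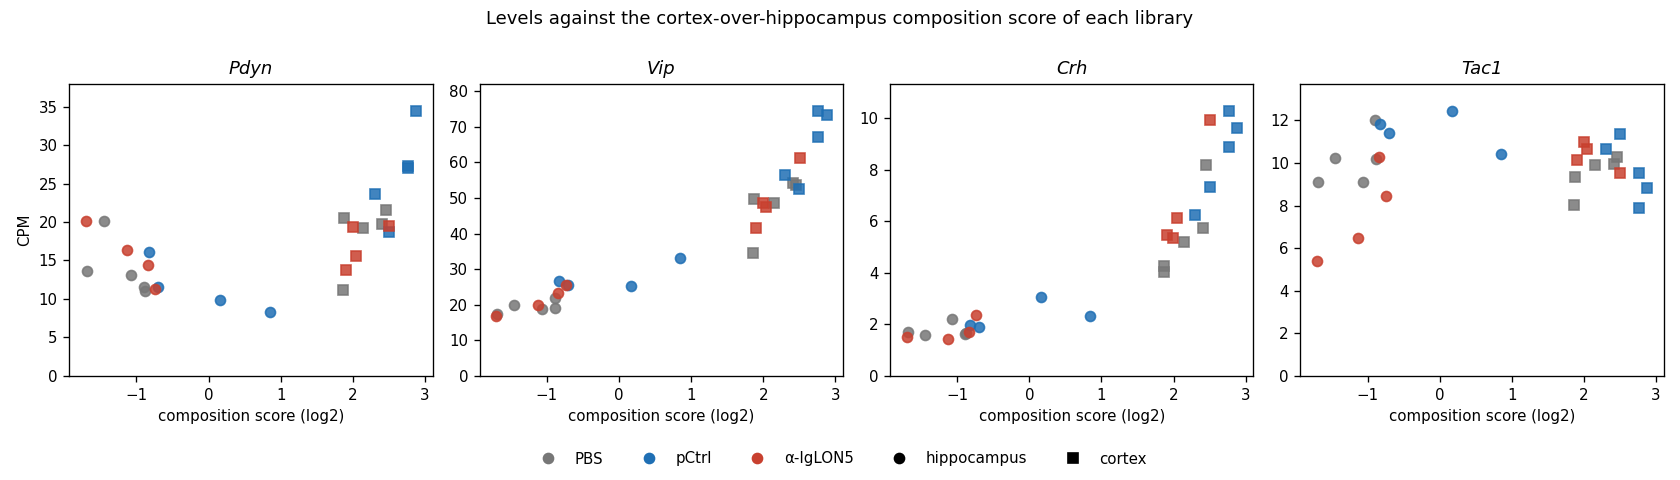
Levels of Pdyn, Vip, Crh and Tac1 (vertical axes, CPM) against the composition score (horizontal axis, log2 CPM difference, higher towards cortex) in each library, with circles for hippocampi and squares for cortices. The pCtrl hippocampi at 0.16 and 0.85 stand between the other hippocampi and the cortices, and hold 9.87 and 8.33 CPM of Pdyn and 25.3 and 33.0 CPM of Vip.

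The tissues differed far more than the treatments. Crh, Vip, Tac2, Penk and Npy were called higher in cortex than in hippocampus in all 3 treatments, and Sst in none (edgeR, all libraries). Called higher in cortex were 6 of 10 members in PBS, 8 in pCtrl and 7 in α-IgLON5#1, where 14.1%, 10.7% and 12% of all genes were called higher and 26.7%, 19.9% and 23.9% in either direction. No member was called lower in cortex. The median log2 fold change of the members was 0.46 in PBS, 0.74 in pCtrl and 0.54 in α-IgLON5#1, beside -0.01, -0.02 and -0.02 over all genes.

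**Figure D4:**
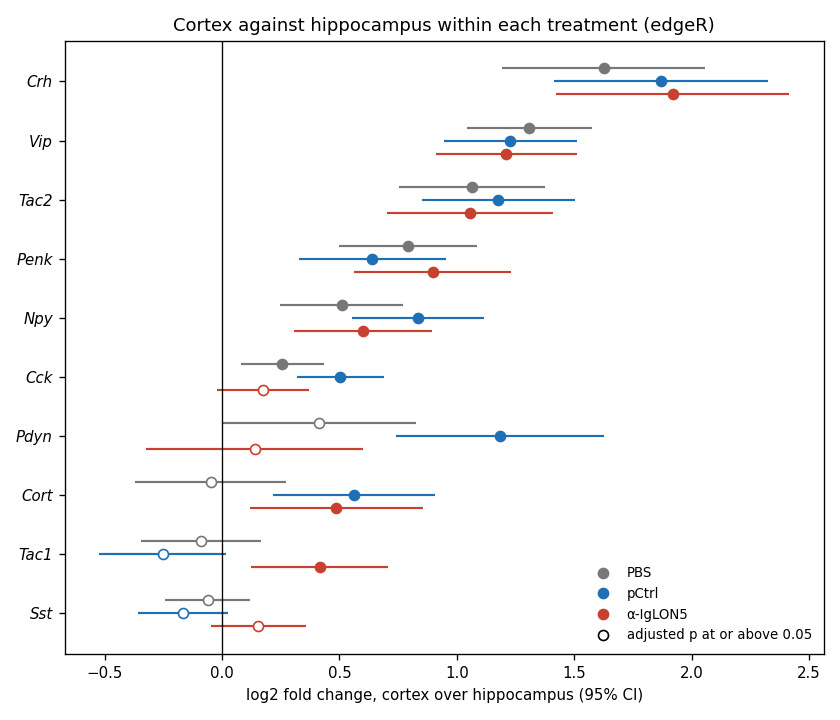
Log2 fold change of cortex over hippocampus for the 10 genes (horizontal axis, points with 95% intervals) in PBS, pCtrl and α-IgLON5#1 mice; open points did not pass the test. Crh, Vip, Tac2, Penk and Npy are filled in all 3 treatments, and Sst, between -0.17 and 0.16, in none.

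Among the interneuron peptides, Vip (ENSMUSG00000019772, chr10:5639218-5647617, plus strand) measured 53.6, 48.5, 54.3, 34.5 and 49.7 CPM in PBS cortices (mice 14, 32, 33, 38 and 74), all above the PBS hippocampi given above, and 17.8% of all genes were as fully separated between the PBS tissues, in either direction. The log2 fold change was 1.31 in PBS (SE 0.13, adjusted p = 3.3e-08), 1.23 in pCtrl and 1.21 in α-IgLON5#1. The lowest cortex of any treatment, PBS mouse 38 at 34.5 CPM, still lay above the highest hippocampus, pCtrl mouse 37 at 33.0 CPM. Npy (ENSMUSG00000029819, chr6:49822710-49829507, plus strand), the neuropeptide Y precursor, measured 53.5, 39.3, 35.0, 28.6 and 39.8 CPM in PBS cortices and 32.9, 24.8, 26.6, 25.4 and 28.2 CPM in PBS hippocampi of the same mice. These ranges overlapped, yet the cortex was higher in 13 of 13 mice of all treatments, with log2 fold changes of 0.51 (SE 0.13, adjusted p = 0.0032), 0.83 and 0.60. Sst (ENSMUSG00000004366, chr16:23889573-23890958, minus strand) was 167 ± 21 CPM in PBS cortices and 175 ± 25 CPM in PBS hippocampi (n = 5 each), the cortex was higher in 7 of 13 mice, and its log2 fold changes of -0.06, -0.17 and 0.16 did not pass (adjusted p = 0.680, 0.227 and 0.285 in edgeR).

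The calls of Cck and Cort differed between the treatment groups or rested on single libraries, and neither gene passed in an interaction. For Cck the interaction was -0.33 against pCtrl (SE 0.13, adjusted p = 0.349 in edgeR) and -0.08 against PBS (SE 0.13). The cortex was higher in 12 of 13 mice for Cck and in 8 of 13 for Cort. Cck (ENSMUSG00000032532, chr9:121489824-121495694, minus strand) had log2 fold changes of 0.26 in PBS (SE 0.09, adjusted p = 0.0246), 0.50 in pCtrl (SE 0.09, adjusted p = 0.000199) and 0.18 in α-IgLON5#1 (SE 0.10, adjusted p = 0.194). The PBS call was lost without the cortex of mouse 14 (0.18, adjusted p = 0.111), the cortex of mouse 33 (0.24, adjusted p = 0.0551) or the hippocampus of mouse 14 (0.23, adjusted p = 0.0639). Cort (ENSMUSG00000028971, chr4:149125034-149126763, minus strand) was 6.74 ± 1.06 CPM in cortex and 6.96 ± 0.391 CPM in hippocampus of PBS mice (n = 5 each), with a log2 fold change of -0.05 (SE 0.16, adjusted p = 0.871). It was higher in cortex in pCtrl (0.56, SE 0.17, adjusted p = 0.0171) and in α-IgLON5#1 (0.49, SE 0.18, adjusted p = 0.0477). In pCtrl the call was lost without the hippocampus of mouse 37 (0.50, adjusted p = 0.0529) or 75 (0.54, adjusted p = 0.05002, just above the threshold), and in α-IgLON5#1 without the cortices of mice 9, 16 or 17 or the hippocampi of mice 9 or 16, where the adjusted p was between 0.0690 and 0.146. Without the hippocampus of mouse 9 the log2 fold change was 0.27, and without any 1 of the other 4 it was 0.45 to 0.50.

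Of the opioid precursors, Penk (ENSMUSG00000045573, chr4:4133531-4138819, minus strand), which encodes the enkephalins, measured 22.8, 29.7, 30.9, 25.5 and 32.6 CPM in PBS cortices and 17.6, 15.8, 21.9, 12.2 and 14.2 CPM in PBS hippocampi (mice 14, 32, 33, 38 and 74). Cortices and hippocampi of PBS mice did not overlap, and the log2 fold changes were 0.79 in PBS (SE 0.14, adjusted p = 0.000122), 0.64 in pCtrl (SE 0.15, adjusted p = 0.00317) and 0.90 in α-IgLON5#1 (SE 0.16, adjusted p = 0.000167). In pCtrl the value was 0.39 (adjusted p = 0.108) with the hippocampi of mice 10 and 37 left out together, a setting chosen after seeing the data. Penk is overlapped on the other strand by A830012C17Rik, and whether the counting used strand is not given in the sources used here. Pdyn (ENSMUSG00000027400, chr2:129686565-129699844, minus strand) was higher in cortex in pCtrl mice alone among the calls (1.18, SE 0.22, adjusted p = 0.000223), beside 0.41 in PBS (SE 0.20, adjusted p = 0.136) and 0.14 in α-IgLON5#1 (SE 0.23, adjusted p = 0.719). The PBS value passed without the cortex of mouse 38 (0.55, adjusted p = 0.0329) or the hippocampus of mouse 14 (0.58, adjusted p = 0.0349), and the test of the difference between pCtrl and α-IgLON5#1 is the interaction given above.

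The tachykinin precursors differed from each other. Tac2 (ENSMUSG00000025400, chr10:127724478-127731768, plus strand) measured 6.26, 6.12, 5.98, 4.41 and 5.55 CPM in PBS cortices and 2.25, 2.43, 2.93, 3.68 and 2.28 CPM in PBS hippocampi (mice 14, 32, 33, 38 and 74), without overlap. Its log2 fold changes were 1.06 (SE 0.15, adjusted p = 5.17e-06), 1.18 and 1.06, and the cortex was higher in 13 of 13 mice. Tac1 was higher in cortex in 7 of 13 mice, with log2 fold changes of -0.09 in PBS (adjusted p = 0.665) and -0.25 in pCtrl (adjusted p = 0.191). In α-IgLON5#1 mice it was higher in cortex (0.42, SE 0.14, adjusted p = 0.0337), with 10.2, 11.0, 9.52 and 10.7 CPM in the cortices of mice 8, 9, 16 and 17 beside the hippocampal values above. This call was lost without the hippocampus of mouse 8 (0.34, adjusted p = 0.112) or 9 (0.29, adjusted p = 0.146), the cortex of mouse 9 (0.39, adjusted p = 0.0761) or that of mouse 17 (0.40, adjusted p = 0.0691).

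Crh (ENSMUSG00000049796, chr3:19693401-19695396, minus strand) had the widest difference between tissues of the 10 genes. In PBS hippocampi it measured 1.6, 2.21, 1.67, 1.63 and 1.70 CPM, and all 5 lay below the PBS cortices given above, the lowest of which was 4.04 CPM. The log2 fold changes were 1.62 in PBS (SE 0.21, adjusted p = 1.47e-06), 1.87 in pCtrl (SE 0.22, adjusted p = 9.41e-07) and 1.92 in α-IgLON5#1 (SE 0.24, adjusted p = 1.78e-06). Crh, Vip, Tac2 and Npy were called in all 3 treatments under the alternatives run for the tissue comparisons, the fold threshold aside; the composition covariate was not run there, nor PBS among mice 8 to 17. Beside these differences, markers of neurons were higher in cortex in 3 or 4 of 5 genes, and GABAergic interneuron markers were higher for 3 and lower for 7 of 14 in PBS, with sums of 1053 to 1211 CPM in cortices and 1039 to 1196 CPM in hippocampi. Markers of striatal medium spiny neurons, which make Penk, Pdyn and Tac1 in the neighbouring striatum, summed to 191 to 231 CPM in PBS cortices and 157 to 176 CPM in PBS hippocampi. The part of these lists in the tissue differences was not tested.

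Receptors differed between the tissues in both directions. In PBS, 5 of 19 were higher and 6 lower in cortex, in pCtrl 3 and 8, and in α-IgLON5#1 6 and 4. Cckbr, the main brain receptor of cholecystokinin, was higher in cortex, with 72.8 ± 16.4 CPM against 11.9 ± 3.37 CPM in PBS (n = 5 each; log2 fold change 2.62, SE 0.27, adjusted p = 4.7e-08) and with 1.77 in pCtrl and 2.42 in α-IgLON5#1. Crhr1, a receptor of corticotropin-releasing hormone (1.23 in PBS, 1.12 in α-IgLON5#1), and Oprk1, the receptor of dynorphin (1.19, 1.26 and 1.36 in PBS, pCtrl and α-IgLON5#1), were higher as well. Npy2r, a receptor of neuropeptide Y, was lower in cortex, with 6.29 ± 0.300 CPM against 44.4 ± 14.0 CPM in PBS (n = 5 each; -2.82, SE 0.28, adjusted p = 3.31e-08), -2.02 in pCtrl and -2.67 in α-IgLON5#1. Tacr3, the neurokinin B receptor, was lower in cortex in pCtrl (-1.56, SE 0.32, adjusted p = 0.000675). The corresponding log2 fold changes of the peptide genes Cck and Npy in PBS were 0.26 and 0.51.

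Of the 12 processing genes, 5 were higher and 1 lower in the cortices of PBS mice, 4 and 1 in pCtrl, and 5 and 0 in α-IgLON5#1. The prohormone convertases, which cut the precursors, were among them: Pcsk1 had log2 fold changes of 1.14, 0.89 and 1.47 and Pcsk2 of 0.88, 0.79 and 0.80. Scg5, a chaperone of Pcsk2, followed at 0.39, 0.52 and 0.52, and Pam, which amidates peptides, at 0.24 in pCtrl and 0.25 in α-IgLON5#1. Cadps2, which serves dense core vesicle release, was lower in PBS cortices (-0.48, SE 0.15, adjusted p = 0.0176). Of 11 other neuropeptide genes, 3 were higher and 3 lower in PBS, 2 and 3 in pCtrl, and 5 and 3 in α-IgLON5#1. Nts, the neurotensin precursor, was lower in cortex (-1.58, -3.05 and -1.72), as was Grp, gastrin-releasing peptide (-1.34, -1.02 and -1.23), whereas Nppc was higher in PBS (0.79), Adcyap1 in pCtrl (0.91) and Trh in α-IgLON5#1 (2.75, SE 0.87, adjusted p = 0.0223). The genes counted as lower include Gal, the galanin precursor, whose group means of at most 0.0601 CPM in cortex and 0.357 to 0.535 CPM in hippocampus let it pass the count filter through the hippocampus alone, so its call is given no weight here.

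Activity-regulated genes, whose transcription rises with neuronal firing, were higher in cortex for 13 of 16 in PBS, 13 in pCtrl and 12 in α-IgLON5#1, with none lower and list medians of 1.42, 1.51 and 1.41. In PBS the log2 fold changes were 2.86 for Egr2, 1.94 for Egr1, 1.81 for Nptx2 and 1.72 for Fosb. In pCtrl they were 3.20, 1.74, 2.41 and 1.80, and in α-IgLON5#1 2.57, 1.84, 1.77 and 1.69. Their part in the tissue differences of the 10 peptide genes was not tested.

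Within a tissue, some members varied together from mouse to mouse after group means were removed. All 45 pairs were compared in each tissue by Pearson's r and Spearman's rho of log2 CPM, with permutations of libraries within groups and Benjamini-Hochberg adjustment over the 90 tests. In the cortex (n = 14) 10 of 45 pairs passed for r, all positive: Npy with Tac2 and Crh, Sst with Tac1, Cck with Vip, Tac2 and Crh, Vip with Pdyn, Tac2 and Crh, and Pdyn with Tac2. For rho 5 of these passed: Cck with Vip and Crh, Vip with Pdyn and Crh, and Pdyn with Tac2. In the hippocampus (n = 13) 0 of 45 pairs passed by this permutation test for r or rho, and the median r was -0.03 against 0.54 in the cortex. The 2 values of a pair come from the same library and share its depth and its piece of tissue.

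Vip and Pdyn had the highest r in the cortex, 0.91 (permutation p = 0.0003, adjusted p = 0.0271), with a rho of 0.77 (permutation p = 0.0026, adjusted p = 0.0461). Cck and Crh had an r of 0.90 (permutation p = 0.0008, adjusted p = 0.0271) and a rho of 0.83 (permutation p = 0.0021, adjusted p = 0.0461). Pdyn and Tac2 had an r of 0.82 (permutation p = 0.0019, adjusted p = 0.0271) and a rho of 0.91 (permutation p = 0.0005, adjusted p = 0.0450), and Sst and Tac1 an r of 0.81 (permutation p = 0.0025, adjusted p = 0.0271) and a rho of 0.73 (permutation p = 0.0088, adjusted p = 0.0799). For each pair, the 2 libraries farthest from the median of its first-named gene were also left out. Over the 10 pairs r then ran from 0.584 to 0.909. Mouse numbers fall into a low and a high series, within which the median r over all 45 cortical pairs was 0.45 (mice 8 to 17, n = 7, without PBS mouse 14, which is alone in its group there) and 0.60 (mice 32 to 75, n = 6). Vip and Pdyn had r = 0.85 and 0.96 in these series, Cck and Crh 0.90 and 0.85, Pdyn and Tac2 0.85 and 0.85, and Sst and Tac1 0.79 and 0.85, but these pairs were picked for their r over the same libraries. With the composition score regressed out, a setting chosen after seeing the data, 0 of 90 pairs passed the permutation test, and the median r in the cortex was 0.40. The r of Vip with Pdyn was then 0.87 and that of Sst with Tac1 0.82, close to the values above, while that of Cck with Crh was 0.40 and that of Vip with Crh 0.08.

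**Figure D5:**
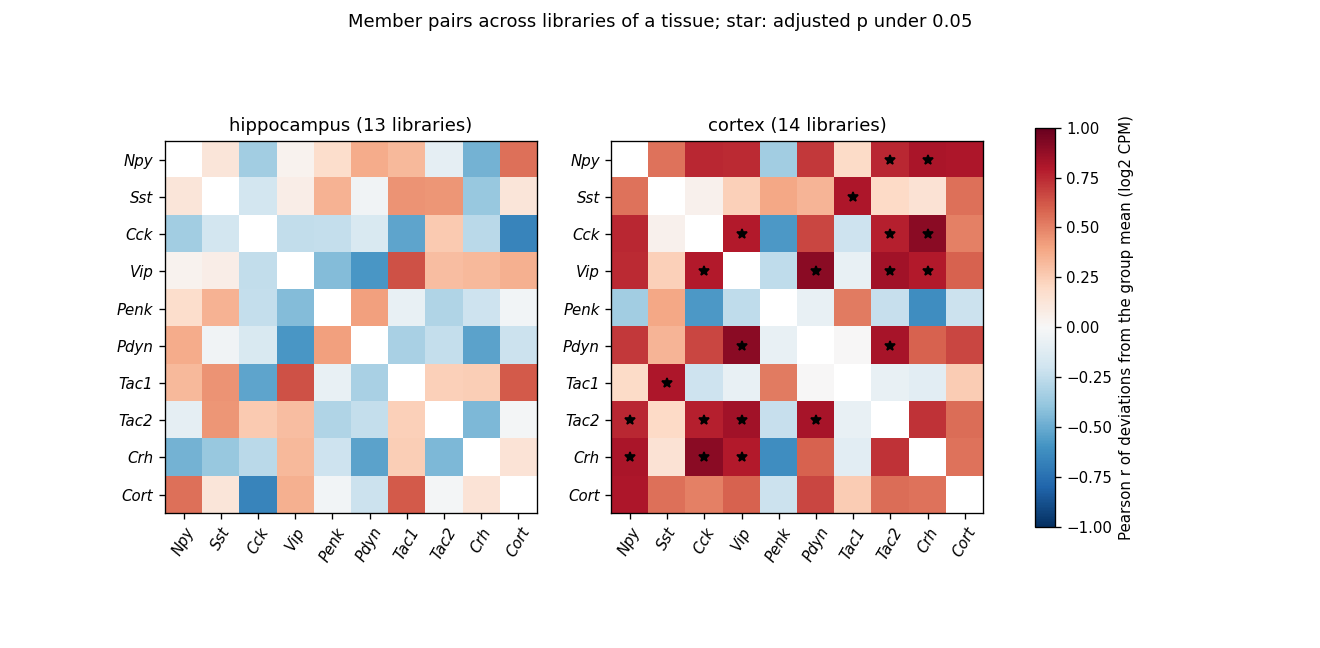
Pearson's r between each pair of the 10 genes (color scale from -1 to 1), as deviations from group means of log2 CPM, in hippocampus (n = 13 libraries) and cortex (n = 14); stars mark an adjusted permutation p under 0.05. The cortex shows 10 starred pairs and positive values for 34 of 45, the hippocampus no star and positive values for 21 of 45.

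Whether the tissues of a mouse share its deviations was asked for each gene. Over 13 mice 0 of 10 correlations between the hippocampus and the cortex passed after adjustment over the 10 genes. The lowest permutation p-values were those of Tac2, with r = -0.60 (permutation p = 0.0335, adjusted p = 0.216) and rho = -0.61 (permutation p = 0.0457, adjusted p = 0.229), and of Crh, with r = 0.60 (permutation p = 0.0433, adjusted p = 0.216) and rho = 0.59 (permutation p = 0.0442, adjusted p = 0.229). Without the 2 mice farthest from the median in the cortex, r was -0.38 for Tac2 and 0.74 for Crh.

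The genes most like each member were taken by Pearson's r of log2 CPM over the libraries of a tissue, as deviations from group means. Since they were picked for their r, no test was made. The hippocampus had 10814 genes to compare (n = 13 libraries). In the hippocampus the first were Cyp4f15 (0.90) for Tac1, Mapk4 (0.94) for Vip, Plk5 (0.95) for Pdyn, Sntb1 (0.90) for Sst, Cald1 (0.90) for Npy, Ppa1 (0.90) for Cck, Ighm (0.92) for Cort, Topors (0.93) for Penk and Slc12a2 (0.87) for Crh. Plk5 is also 1 of the dentate granule cell markers used here, and Ighm is the heavy chain of immunoglobulin M. In the cortex (n = 14 libraries) they were Ubxn8 (0.94) for Tac1, Ttc7b (0.98) for Vip, Gm1976 (0.96) for Pdyn, Diras1 (0.92) for Sst, Cplx1 (0.96) for Npy, March4 (0.97) for Cck, Zfp575 (0.88) for Cort, Hpcal1 (0.98) for Penk, Actr1b (0.93) for Tac2 and Nefl (0.97) for Crh. None of these genes was the first of more than 1 member, although Cx3cl1 was among the 3 most like both Cck and Crh in the cortex and Rgs4 among those most like Tac2 in the cortex and Crh in the hippocampus.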

How the data were processed

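RNA-seq libraries of contralateral hippocampus and cortex were assigned to tissue, treatment and mouse from the labels. The authors made stranded paired-end mRNA libraries, aligned reads with STAR at default settings to GRCm38 and deposited raw counts per Ensembl gene ID, without normalization; the counting program, annotation release and strand setting are not given in the sources used here. Of 55487 IDs, 55141 matched GENCODE M21, and 0 columns were unassigned. Depth was 19385642 to 58550621 counts per library, and counting error is smallest for the deepest. No 2 libraries of a group repeated each other (48 pairs, smallest chi-square per degree of freedom 4.44).

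A gene was tested if at least 4 libraries held 10 or more of the deposited counts. Tests were made with edgeR 4.0.16 in R 4.3.3 (TMM, glmQLFit, glmQLFTest) on all 27 libraries with 6 groups of tissue and treatment, two-sided, with Benjamini-Hochberg adjustment over 20271 genes and a threshold of 0.05. Log2 CPM used a prior count of 1. Correlations were tested with 100000 random permutations within groups (Python 3.11.15, scipy 1.17.1). The scripts were tested on simulated data. Alternatives were DESeq2 1.42.0, RLE size factors, other count filters, a fold change above 2, only the groups compared, a composition covariate (genes with a mean log2 CPM above 3), mice 8 to 17, each library left out, and the mouse as a block (edgeR, or limma 3.58.1 with voom).

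The number in a sample's title marks the mouse, so its tissues are paired. Treatments matched in 13 of 13 mice, and over genes the deviations of both tissues correlated at -0.05 to 0.44 (median 0.194, above 0.1 in 8 of 13). The members, gene lists and tests were chosen with earlier results of these data known. All 10 members are named with values; genes of the receptor, processing, other neuropeptide and activity-regulated lists are named where they passed in a comparison in which a member passed, at most the 4 with the largest change per list. Marker lists are given as counts and sums. Crhbp and Gad2 against PBS in the hippocampus, and Tacr1 and Tacr3, fall outside that rule and were named after their values were seen. The 3 genes with the highest r were taken as most like each member, and the text gives the first of them, 1 of which is not reported here. Cckar of the receptor list had too few counts and was not tested.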

Additional observations from a re-analysis of the deposited data

Results flagged for a closer look

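Each member was examined in each of the 6 groups for a library whose distance to its nearest neighbour was large against the range of the group (Dixon's test at the 95% level). Of 60 groups tested, 5 held such a library, and chance flags about 5% of groups.

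In hippocampi, Cck in the α-IgLON5#1 group was 218 CPM in mouse 9, while the others ran from 189 to 193 CPM. Pdyn in the PBS group was 20.1 CPM in mouse 14, while the others ran from 11.1 to 13.6 CPM. Crh in the PBS group was 2.21 CPM in mouse 32, while the others ran from 1.6 to 1.70 CPM.

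In cortices, Pdyn in the PBS group was 11.2 CPM in mouse 38, while the others ran from 19.2 to 21.6 CPM. Crh in the α-IgLON5#1 group was 9.93 CPM in mouse 16, while the others ran from 5.34 to 6.11 CPM. The PBS values of Pdyn in mice 14 and 38 are those whose removal let Pdyn pass as higher in cortex among PBS mice.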

How the results depend on the processing

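Over the values of single members under the alternatives other than the fold threshold, 1931 kept their side of the threshold, 28 lost a call and 11 gained one. Of the called values 0 turned direction, while some values near 0 that were not called changed sign. Against pCtrl in the hippocampus the number of members called was 1, and 0 with a fold change above 2, with only the groups compared, with the composition covariate, among mice 8 to 17 and without pCtrl mice 10 and 37 (Tac1 -0.58, adjusted p = 0.128; chosen after seeing the data). With 1 library left out it was 0 to 1 there and against PBS, 0 to 1 for pCtrl against PBS in the hippocampus (1 with DESeq2) and 0 to 2 against pCtrl in the cortex. With a fold change above 2, members called higher in cortex were 3 in PBS, 4 in pCtrl and 3 in α-IgLON5#1. Among mice 8 to 17 Cort lost its tissue call in pCtrl (0.42, adjusted p = 0.422) and in α-IgLON5#1 (0.50, adjusted p = 0.140), and with only the groups compared in α-IgLON5#1 (0.51, adjusted p = 0.237). Sst in α-IgLON5#1 gained one in these settings (0.17, adjusted p = 0.0436 and 0.0377), and Tac1 there lost its own (0.43 and 0.44, adjusted p = 0.0839 and 0.148). With the composition score regressed out 0 pairs of members passed. Both correlation results held with RLE. The causes of these changes were not tested.

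The replicate block changed no call: Tac1 against pCtrl was -0.56 (adjusted p = 0.0172, limma voom) and Crh in PBS cortex against hippocampus was 1.58 (adjusted p = 2.44e-07, edgeR).

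Over all genes, 1420 called against pCtrl in the hippocampus became 57 among mice 8 to 17 and 1824 with DESeq2 (574 to 2090 with 1 library left out). The number called was 869 against PBS and 567 to 1039 in other settings (585 to 1247), 39 between the controls and 0 to 542 (0 to 763), 701 against pCtrl in the cortex and 10 to 917 (317 to 980), 618 against PBS there and 314 to 693 (359 to 718), 4030 between pCtrl tissues and 2321 to 4382, and 0 in the interaction against pCtrl and up to 32 (0 to 9). Mice 8 to 17 hold 1 PBS mouse, which left no comparison with PBS there. Depth limits Crh, Cort and Tac2 in the hippocampus most, with as few as 27, 44 and 48 counts.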
